A study of Homo sapiens with 9 samples.

Results

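The genes described here belong to the RB, E2F, FOXM1 and INK4 circuit, which decides whether a cell leaves G1 and copies its DNA. They are E2F1, E2F2, E2F7, E2F8, RBL1, MYBL2, FOXM1, CDKN2A, CDKN2C and LIN9, chosen by name, and all 10 had a row among the 6499 genes of the deposited table. The table compares WI-38 cells, an established human lung fibroblast line with a limited lifespan, here at population doubling 30, in a control group and a senescence model group. The control group had DMSO in place of doxorubicin and then DMSO medium, and the model group had 1 μM doxorubicin, an anthracycline that poisons topoisomerase II, for 12 h followed by DMSO medium for 48 h. Each group had 3 libraries. A further group of 3 libraries given oridonin after doxorubicin was not analysed here. No label says whether the libraries of a group came from separate cultures, and the paper says only in general that its results rest on independent experiments, so the p-values below measure only the spread between these libraries, which may be technical.

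In G1, the RB family of pocket proteins holds E2F factors in check. Cyclin D with CDK4 or CDK6 phosphorylates RB and frees the activator E2Fs, among them E2F1 and E2F2, and the INK4 proteins encoded by CDKN2A and CDKN2C block CDK4 and CDK6. RBL1 encodes the pocket protein p107, and E2F7 and E2F8 encode atypical E2Fs that repress E2F targets. LIN9 is a subunit of the MuvB core, which represses cell cycle genes in quiescent cells as part of the DREAM complex and joins B-MYB (encoded by MYBL2) and FOXM1 to activate genes of G2 and mitosis in dividing cells. CDKN2A, through its product p16, is among the most widely used markers of senescence in fibroblasts.

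The upstream regions of several of these genes are known for E2F sites, so RefSeq promoter windows (250 bases before to 50 bases after a transcript start, GRCh38.p14) are shown for 4 genes. E2F1, RBL1 and MYBL2 were lower after doxorubicin, and CDKN2A was the single gene of the 10 with a higher mean. CDKN2A has a window at each of 2 starts. The upstream start is on the side of the ARF transcript and the downstream start on that of p16. Sequences run 5′ to 3′ on the strand of the gene, and capitals mark matches, on either strand, to TTTCCCGC, TTTCGCGC, TTTGCCGC or TTTGGCGC or to the shorter GGCGGGA.
E2F1, chr20:33686336-33686635, minus strand: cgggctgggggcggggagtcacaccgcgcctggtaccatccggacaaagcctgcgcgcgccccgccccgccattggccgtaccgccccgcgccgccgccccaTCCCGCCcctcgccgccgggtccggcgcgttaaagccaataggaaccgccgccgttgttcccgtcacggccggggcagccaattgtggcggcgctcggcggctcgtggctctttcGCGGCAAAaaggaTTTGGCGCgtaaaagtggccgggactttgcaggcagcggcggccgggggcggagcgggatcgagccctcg
RBL1, chr20:37095948-37096247, minus strand: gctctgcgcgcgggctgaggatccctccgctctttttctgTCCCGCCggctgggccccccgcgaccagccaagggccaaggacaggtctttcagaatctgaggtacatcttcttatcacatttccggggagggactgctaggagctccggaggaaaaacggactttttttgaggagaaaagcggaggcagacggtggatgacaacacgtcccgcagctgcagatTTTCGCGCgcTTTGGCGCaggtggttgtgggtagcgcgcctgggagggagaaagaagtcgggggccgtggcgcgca
MYBL2, chr20:43666864-43667163, plus strand: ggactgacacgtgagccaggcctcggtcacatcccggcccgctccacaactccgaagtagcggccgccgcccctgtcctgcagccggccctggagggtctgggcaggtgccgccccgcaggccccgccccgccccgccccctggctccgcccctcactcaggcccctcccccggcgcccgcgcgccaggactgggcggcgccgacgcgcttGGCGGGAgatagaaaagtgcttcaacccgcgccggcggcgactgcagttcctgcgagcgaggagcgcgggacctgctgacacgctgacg
CDKN2A, upstream start, chr9:21995275-21995574, minus strand: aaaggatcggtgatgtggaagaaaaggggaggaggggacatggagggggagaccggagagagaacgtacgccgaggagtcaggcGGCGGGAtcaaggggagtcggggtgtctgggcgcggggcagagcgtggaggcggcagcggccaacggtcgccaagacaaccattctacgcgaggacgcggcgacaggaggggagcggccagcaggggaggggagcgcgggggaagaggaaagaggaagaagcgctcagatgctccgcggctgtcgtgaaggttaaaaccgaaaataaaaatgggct
CDKN2A, downstream start, chr9:21974808-21975107, minus strand: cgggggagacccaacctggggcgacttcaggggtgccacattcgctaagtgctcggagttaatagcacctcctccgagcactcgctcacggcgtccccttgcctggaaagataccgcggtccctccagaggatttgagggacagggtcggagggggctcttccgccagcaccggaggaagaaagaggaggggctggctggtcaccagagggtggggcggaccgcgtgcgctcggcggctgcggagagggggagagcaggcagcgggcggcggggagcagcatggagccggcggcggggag
One of the 8-base motifs was present in 3 of the 13 windows of these genes and in 3.31% of all 35116 windows of the same length. The 3 were those of E2F1, E2F2 and RBL1, at 42 bases or fewer before the start. The 7-base GGCGGGA was present in 6 of the 13 windows and in 15.4% of all windows. The 6 were 1 window each of CDKN2A (upstream start), CDKN2C, E2F1, LIN9, MYBL2 and RBL1. These motifs can overlap one another. The letters TTTGAA or TTCGAA, taken for the cell cycle homology region where MuvB binds, were found in 1 of the 13 windows of these genes, that of LIN9, and in 16.4% of all windows. A match describes letters only and is not a binding site. Windows were matched for 8 of the 10 genes, without FOXM1 and E2F8. Each gene shown above has a marked match. The window of E2F7, a gene also lower after doxorubicin, had no match to any of these motifs and is not shown.

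Every gene in the deposited table had passed the thresholds of the authors on the same 6 libraries, a fold of more than 1.2 and p under 0.05, so no test here is independent of that choice. The lack of a row therefore does not show that a gene was not expressed. Counts of changed genes on a list leave out its genes without a row. The deposited fold is not the ratio of the deposited TPM means, which lay within 1.2-fold in either direction for 1243 of the 6499 genes. These genes took up 54.3 to 54.8% of all TPM (a level scaled for gene length and to the same total in each library) of a control library and 58.6 to 60.0% of a doxorubicin library, and the number of reads behind them is unknown. Across the 5721 genes that averaged 1 TPM or more and were tested, libraries of a group correlated at 0.992 to 0.995 (Pearson's r, log2 of TPM + 1) and libraries of different groups at 0.935 to 0.958, across genes that are not independent replicates. A gene is called changed where limma gave a Benjamini-Hochberg adjusted p under 0.05 over those 5721 genes and a fold change over 1.2 on the log2(TPM + 1) scale, which understates the change of low genes. By that rule 71.2% of these 5721 genes changed, 48.5% lower and 22.7% higher. The median difference over all of them, changed or not, was -0.28 on the log2 scale, and higher genes made up 31.9% of those changed, against 53.5% after quantile normalization and 59.9% after centring each library on its median. Of the fibroblast markers, COL1A1, COL1A2, COL3A1 and PDGFRB had a row, with a summed level of 5814 to 6164 TPM in control and 3915 to 4600 TPM in doxorubicin libraries. Of 5 epithelial markers, KRT8, KRT18 and KRT19 had a row and summed to 135 to 150 TPM and 283 to 307 TPM, while EPCAM and CDH1 had none. The immune marker PTPRC lay between 0.01 and 0.62 TPM in all 6 libraries while CD68, also a lysosomal protein, brought the sum of the immune markers to 45.0 to 49.0 TPM and 87.4 to 93.7 TPM, and no endothelial marker had a row. The part of these markers in the results below was not tested. In bulk RNA, fewer cells of a kind and less RNA in each cell cannot be told apart.

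After doxorubicin, most of the 10 genes were lower, activators and repressors of the cell cycle among them. The 10 were chosen with earlier results of these data known, so their count does not speak for the whole circuit. Of the 10 genes, 9 had a lower mean and CDKN2A a higher one, and in all 10 the 3 doxorubicin libraries did not overlap the 3 control libraries, as in 80.4% of the genes in the table and 80.7% of those tested. Genes lower after doxorubicin without overlap made up 46.3% of the table. Of the 6 genes past the filter, MYBL2, FOXM1, E2F1, CDKN2C and E2F7 fell, and CDKN2A did not pass. Their log2 fold changes ran from -3.24 to 0.16. E2F2, E2F8, RBL1 and LIN9 lay under the filter and are given by their values. An exact permutation test on the TPM values, two-sided, gave p = 0.1 for each of the 10, the smallest that 3 libraries against 3 allow.

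**Figure D1:**
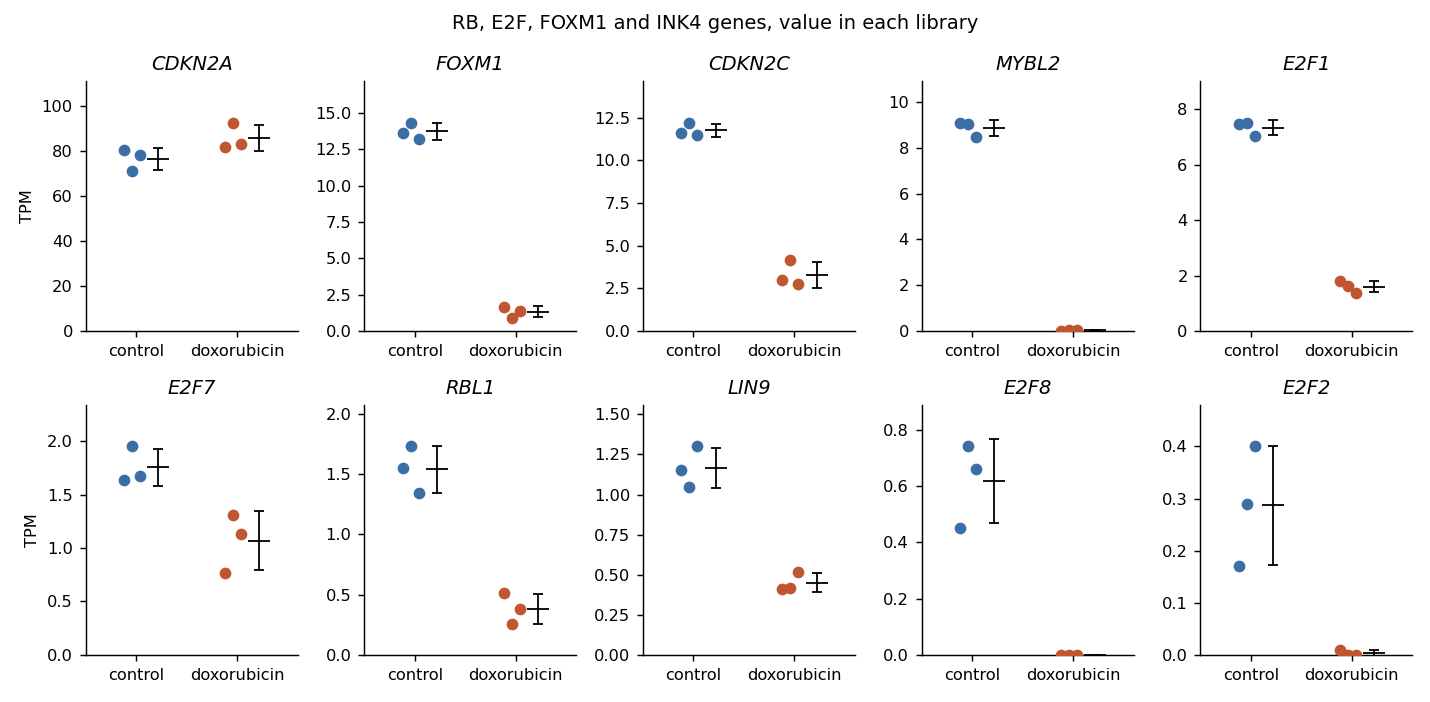
Level of each of the 10 genes in TPM (vertical axis, a separate scale per gene, from 0) in the 3 control and 3 doxorubicin libraries; points are libraries, and the dash with bars is the mean ± SD. Only CDKN2A sits higher after doxorubicin, at 82.06 to 92.72 TPM against 71.26 to 80.56 TPM, and MYBL2, E2F2 and E2F8 are near 0.

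MYBL2 (ENSG00000101057, chromosome 20, 43667019 to 43716496) is the gene of B-MYB. Its level was 9.09, 9.03 and 8.48 TPM in control cells against 0.02, 0.05 and 0.06 TPM after doxorubicin. No doxorubicin library came near a control library, and the doxorubicin mean was 0.489% of the control mean, with values deposited to 2 decimals. In limma the log2 fold change was -3.24 ± 0.12 (standard error) at an adjusted p of 1.35e-08, the fall of rank 31 among the 5721 genes tested. Ranks of falls here and below are on the log2(TPM + 1) scale. They depend on the 1 TPM added and are not ranks of the percentage of control kept. With a pseudocount of 0.1 TPM in place of 1 TPM it was -5.98.

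FOXM1 (ENSG00000111206, chromosome 12, 2857681 to 2877155), a forkhead factor that drives mitotic genes, stood at 13.64, 14.32 and 13.20 TPM in control libraries. After doxorubicin it was at 1.69, 0.94 and 1.40 TPM. The groups were far apart, with means of 13.7 ± 0.564 and 1.34 ± 0.378 TPM (SD, n = 3 each), and the doxorubicin mean was 9.79% of control. In limma it fell by 2.66 ± 0.14 (standard error) on the log2 scale at an adjusted p of 1.65e-07, of rank 49 among the falls. FOXM1 was the second highest of the 10 genes in control cells and the fourth after doxorubicin, where its libraries overlapped those of E2F1 and E2F7.

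LIN9 (ENSG00000183814, chromosome 1, 226231149 to 226309869), the MuvB subunit, was low in both groups. It had 1.15, 1.05 and 1.30 TPM in control libraries and 0.41, 0.42 and 0.52 TPM in doxorubicin libraries, without overlap. The doxorubicin mean was 38.6% of control, and with a mean of 0.808 TPM over the 6 libraries it was under the filter. The log2 ratio of MYBL2 over LIN9, on TPM + 1, was 2.19 ± 0.129 in control and -0.47 ± 0.0427 in doxorubicin libraries (SD, n = 3 each). An exact permutation test gave p = 0.1, and 0.1 adjusted over 3 ratios. After doxorubicin both genes lay under the 1 TPM added, so the size and spread of this ratio depend on that addition.

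The activator E2F1 (ENSG00000101412, chromosome 20, 33675683 to 33686404) fell as well. Its level was 7.48, 7.52 and 7.03 TPM in control libraries and 1.80, 1.62 and 1.39 TPM in doxorubicin libraries. All doxorubicin values lay under all control values, and the log2 fold change in limma was -1.68 ± 0.12 (standard error) at an adjusted p of 1.74e-06. E2F2 (ENSG00000007968, chromosome 1, 23506430 to 23531220), its close relative, had 0.17, 0.29 and 0.40 TPM in control and 0.01, 0.00 and 0.00 TPM in doxorubicin libraries, at the lower limit of the deposited decimals. E2F3, the remaining activator, had 5.42, 6.51 and 5.02 TPM against 3.28, 3.01 and 3.60 TPM and fell by 0.63 on the log2 scale (limma adjusted p = 0.00178, but 0.0575 once quantile normalized). The highest of the 3 activators was a different one in each group. In each control library E2F1 was above E2F3 (TPM ratio 1.16 to 1.40), and in each doxorubicin library it was below (0.386 to 0.549), a ratio chosen after its values were seen. The 3 activators summed to 13.3 ± 0.953 TPM in control and 4.90 ± 0.242 TPM after doxorubicin (SD, n = 3 each), 36.9% of the control mean.

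Of the repressive E2Fs, E2F8 (ENSG00000129173, chromosome 11, 19224063 to 19241620) had 0.45, 0.74 and 0.66 TPM in control and was listed at 0.00 in every doxorubicin library, so no fold is given. E2F7 (ENSG00000165891, chromosome 12, 77021247 to 77065580) kept 61.0% of its control mean, with 1.64, 1.95 and 1.67 TPM in control and 0.77, 1.31 and 1.13 TPM in doxorubicin libraries. The groups stood apart by a narrow margin, and limma gave a log2 fold change of -0.42 (95% interval -0.73 to -0.10, adjusted p = 0.0206), of rank 2489 among the falls. This call did not hold without control replicate 2 (log2 fold change -0.37, adjusted p = 0.0597) or without doxorubicin replicate 1 (-0.31, adjusted p = 0.0966). It was also lost after quantile normalization (-0.12, adjusted p = 0.447) and after median centring (-0.16, adjusted p = 0.298). The log2 ratio of E2F7 over E2F1, on TPM + 1, was -1.60 ± 0.0774 in control and -0.34 ± 0.282 in doxorubicin libraries (SD, n = 3 each). An exact permutation test gave p = 0.1, and 0.1 adjusted over 3 ratios.

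Among the pocket protein genes, RBL1 (ENSG00000080839, chromosome 20, 36996349 to 37095995) had 1.55, 1.73 and 1.34 TPM in control and 0.51, 0.26 and 0.38 TPM in doxorubicin libraries. The groups did not overlap and the doxorubicin mean was 24.9% of control. RB1 itself fell from 7.57, 8.10 and 6.80 TPM to 4.25, 3.75 and 4.71 TPM, 56.6% of the control mean (log2 fold change -0.70, limma adjusted p = 0.000756). The third pocket protein gene, RBL2, had no row. When the low genes were fitted without a filter, the adjusted p from limma was 0.000227 for RBL1, 0.000288 for E2F8, 0.000899 for LIN9 and 0.00565 for E2F2, in a fit in which 69.5% of the 6499 genes changed and 45.7% were lower.

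**Figure D2:**
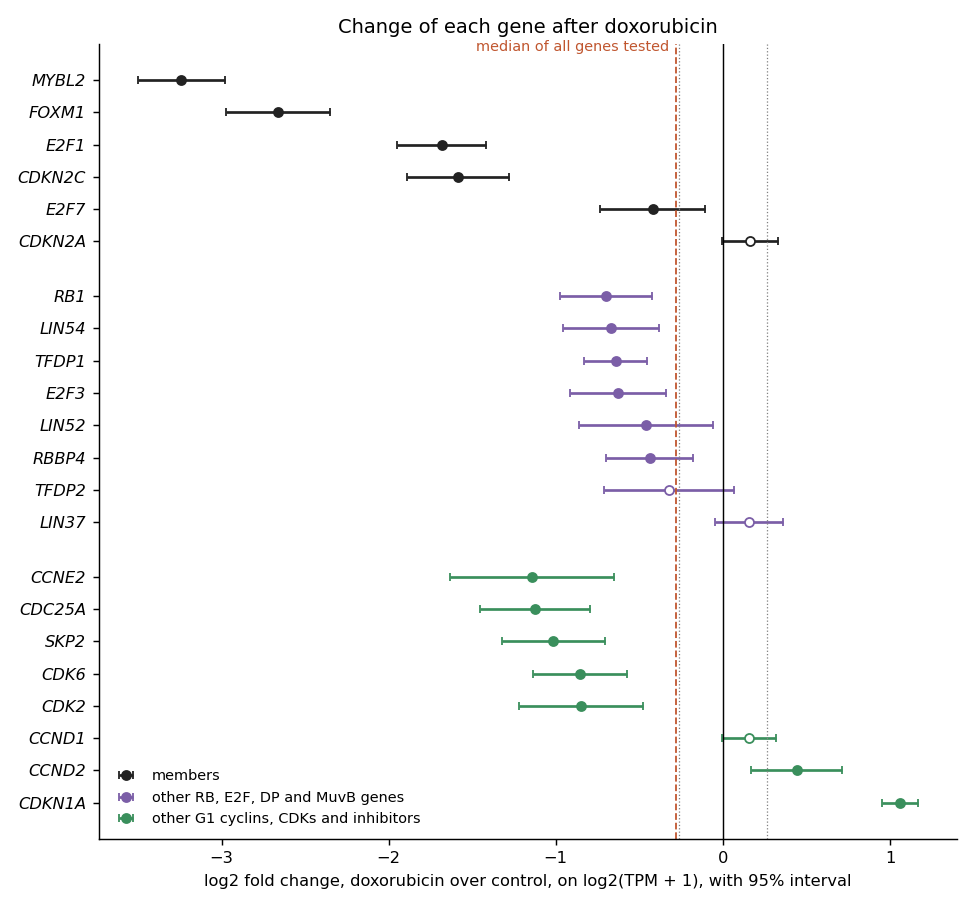
Log2 fold change of doxorubicin over control on log2(TPM + 1) (horizontal axis) with its 95% interval from limma for the 6 tested genes of the circuit and for the other tested genes of 2 lists; filled points changed and open points did not pass, dotted lines mark a fold change of 1.2 and the dashed line the median of all genes tested, -0.28. MYBL2 and FOXM1 lie at -3.24 and -2.66, and CDKN2A, LIN37, CCND1 and TFDP2 are open.

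Of the INK4 genes, CDKN2A (ENSG00000147889, chromosome 9, 21967753 to 21995301) was the highest of the 10 genes in both groups. It had 80.56, 71.26 and 78.36 TPM in control and 82.06, 92.72 and 83.47 TPM in doxorubicin libraries. The groups stood apart by a narrow margin, since the lowest doxorubicin library, at 82.06 TPM, was just above the highest control library, at 80.56 TPM. Means were 76.7 ± 4.86 and 86.1 ± 5.79 TPM (SD, n = 3 each), a ratio of 1.12, and the log2 fold change was 0.16 (95% interval -0.0028 to 0.33, adjusted p = 0.0669 from limma), which did not pass either criterion. As a gene of the table CDKN2A did pass the thresholds of the authors, whose fold is not the ratio of these means. Set against the median of -0.28 over all genes tested, the difference was 0.45 on the log2 scale. That median depends on the filter. Over the 4203 genes that averaged 5 TPM or more it was 0.05, and CDKN2A again had 0.16 (adjusted p = 0.0658 from limma). The result depended on the scaling, since the log2 fold change was 0.42 (adjusted p = 0.00615) after median centring, a value that passes, and 0.14 (adjusted p = 0.149) after quantile normalization, which does not. The table gives 1 value for the gene, so the p16 and ARF transcripts, which start at the different windows shown above, cannot be told apart.

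CDKN2C (ENSG00000123080, chromosome 1, 50960745 to 50974633) encodes p18, the INK4 inhibitor whose gene is known to be an E2F target. It fell from 11.57, 12.20 and 11.51 TPM to 2.97, 4.15 and 2.76 TPM. The groups were well separated, with means of 11.8 ± 0.382 and 3.29 ± 0.749 TPM (SD, n = 3 each) and a limma log2 fold change of -1.58 ± 0.14 (standard error) at an adjusted p of 7.86e-06. The log2 ratio of CDKN2A over CDKN2C on TPM + 1 was 2.70, 2.45 and 2.67 in control and 4.39, 4.19 and 4.49 in doxorubicin libraries, a difference of 1.75 (exact permutation test, p = 0.1 and 0.1 adjusted over 3 ratios). CDKN2B and CDKN2D, the other INK4 genes, had no row.

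**Figure D3:**
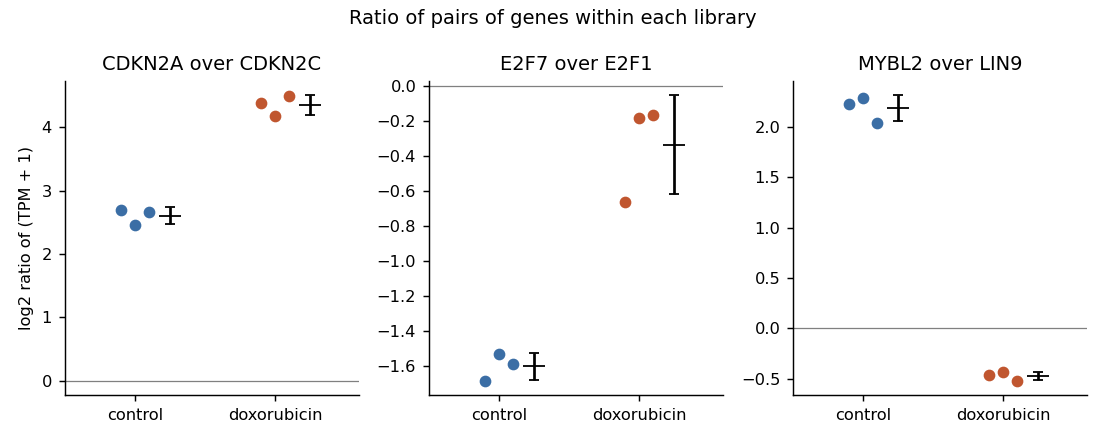
Log2 ratio of TPM + 1 between genes of the same library (vertical axis) in the 3 control and 3 doxorubicin libraries, with the mean ± SD beside the points; a common scale factor for a library cancels in the ratio apart from the 1 TPM added. CDKN2A over CDKN2C and E2F7 over E2F1 are higher and MYBL2 over LIN9 is lower in every doxorubicin library.

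The order of the levels changed with treatment. In control cells it ran CDKN2A, FOXM1, CDKN2C, MYBL2, E2F1, E2F7, RBL1, LIN9, E2F8 and E2F2 in TPM, and the libraries of neighbours overlapped only for E2F7 and RBL1. After doxorubicin it ran CDKN2A, CDKN2C, E2F1, FOXM1, E2F7, LIN9, RBL1, MYBL2, E2F2 and E2F8, and the neighbours E2F1 and FOXM1, FOXM1 and E2F7, LIN9 and RBL1, and E2F2 and E2F8 overlapped. MYBL2 went from the fourth place to the eighth.

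On the list of RB family, E2F, DP and MuvB genes, 16 of 21 had a row and 12 were tested, of which 10 fell and none rose, where 48.5% of all genes tested fell and 22.7% rose. The median was -0.63 on the log2 scale beside -0.28 for all genes tested. The list includes 8 of the 10 genes above. Of the other 8 genes tested, 6 fell. TFDP1, the dimerization partner of the E2Fs, fell by 0.64 on the log2 scale (limma adjusted p = 0.000126), and its means were 61.6 ± 5.72 and 39.1 ± 2.08 TPM (SD, n = 3 each). The MuvB subunit genes LIN54 and RBBP4 had log2 fold changes of -0.67 and -0.44, the latter with an adjusted p of 0.108 after median centring. LIN52, at -0.46 (adjusted p = 0.0381), overlapped between groups and did not pass without control replicate 1, control replicate 2, doxorubicin replicate 1 or doxorubicin replicate 2 (adjusted p of 0.0776, 0.144, 0.154 and 0.0683), nor after quantile normalization (-0.09, adjusted p = 0.622) or median centring (-0.20, adjusted p = 0.261). TFDP2 and LIN37 did not pass, at -0.32 (adjusted p = 0.114) and 0.16 (adjusted p = 0.135). TFDP2 passed without doxorubicin replicate 2 (-0.45, adjusted p = 0.0484) and had a value of 0.02 after quantile normalization, and LIN37 passed after quantile normalization (0.31) and median centring (0.42). E2F4, E2F5, E2F6, RBL2 and MYBL1 had no row.

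Upstream of RB, 10 of 17 genes for G1 cyclins, CDKs and their inhibitors had a row, and 6 fell and 2 rose, near the 48.5% and 22.7% of all genes tested. CDKN2A and CDKN2C are on this list, and of its other 8 genes 5 fell. CDKN1A, which encodes the CDK inhibitor p21, rose by 1.06 on the log2 scale, and its means were 696 ± 12.7 and 1456 ± 52.0 TPM (SD, n = 3 each). It was thus higher than CDKN2A in every library, at 683.46 TPM or more. CCND2, a D-type cyclin, rose from 1.53, 1.77 and 1.63 TPM to 2.43, 2.84 and 2.50 TPM (log2 fold change 0.44, adjusted p = 0.00812 from limma). CCND1, the abundant D-type cyclin, had 398 ± 28.5 and 444 ± 35.7 TPM (SD, n = 3 each) and overlapped between groups. Its log2 fold change was 0.16 (adjusted p = 0.0716, and 0.41 with an adjusted p of 0.000929 after median centring). The kinase genes CDK6 and CDK2 fell, with log2 fold changes of -0.85 and -0.85. CCNE2, CDC25A and SKP2, a cyclin, a phosphatase and a ubiquitin ligase subunit that promote entry into S phase, had log2 fold changes of -1.14, -1.12 and -1.01. CDK4, CCND3, CCNE1, CDKN1B and CDKN1C had no row.

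Downstream, the targets of these factors fell almost throughout. Of the 32 genes on a list of FOXM1 and B-MYB targets of G2 and mitosis, all were tested and 32 fell, at a median of -3.09 on the log2 scale. Of 32 E2F targets of G1/S, 31 were tested, 29 fell and 1 rose, with a median of -1.25. Over all genes tested 48.5% fell and the median was -0.28. The difference between these lists was not tested. On the log2(TPM + 1) scale, the largest falls among the E2F targets were those of RRM2 (34.6 to 0.93 TPM), TK1 (77.5 to 5.57 TPM) and CDC45 (9.61 to 0.45 TPM), which serve nucleotide supply and origin firing. PCNA, the sliding clamp, was the one that rose (log2 fold change 0.67), and POLA2, a subunit of DNA polymerase alpha, did not pass (0.02, adjusted p = 0.912 from limma). UBE2C, CDC20 and PRC1, genes of mitotic exit and the central spindle, led the other list on the same scale, with log2 fold changes of -5.18, -4.74 and -4.20. That scale understates the change of low genes, and MKI67 kept a smaller percentage of its control mean (0.569%) than CDC20 (1.67%). Both lists were chosen with earlier results of these data known.

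**Figure D4:**
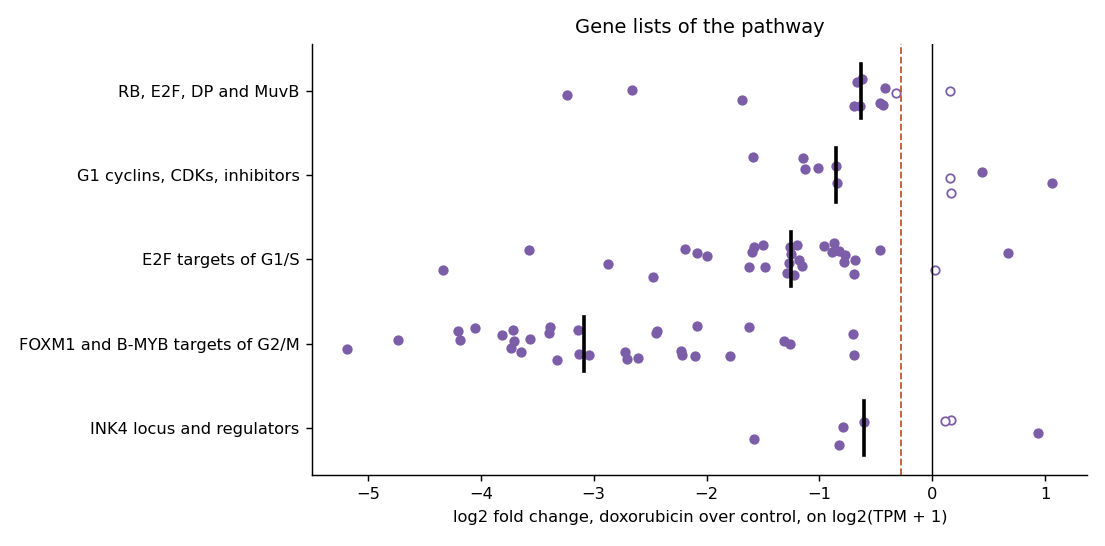
Log2 fold change of doxorubicin over control on log2(TPM + 1) (horizontal axis) for the tested genes of 5 lists; filled points changed, open points did not pass, black bars are list medians and the dashed line is the median of all genes tested. The targets of G2 and mitosis have a median of -3.09 and the E2F targets of -1.25, against -0.63 for the RB, E2F, DP and MuvB genes.

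Of the 15 genes at the INK4 locus or among its Polycomb and transcription factor regulators, 7 had a row, 4 fell and 1 rose, also near the 48.5% and 22.7% of all genes tested. EZH2, the Polycomb methyltransferase that silences the locus and itself an E2F target, fell from 8.57, 6.57 and 7.15 TPM to 1.91, 1.74 and 1.77 TPM (log2 fold change -1.58, adjusted p = 4.76e-06 from limma). SUZ12, its partner, and ETS1, an activator of p16, fell by 0.79 and 0.83 on the log2 scale. ID1, which opposes ETS factors at the p16 promoter, rose by 0.94 on the log2 scale (limma adjusted p = 8.7e-05), with means of 103 ± 17.2 and 197 ± 13.1 TPM (SD, n = 3 each). The third Polycomb partner EED did not pass (0.11, adjusted p = 0.353), and BMI1, CBX7, CDKN2B-AS1 and MTAP had no row.

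**Figure D5:**
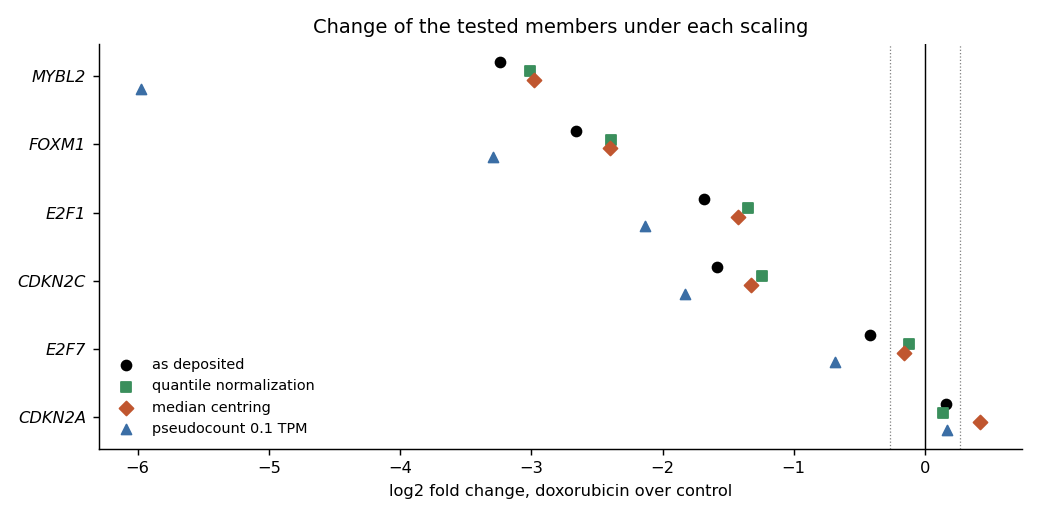
Log2 fold change (horizontal axis) of the 6 tested genes with the values as deposited, after quantile normalization, after median centring and with a pseudocount of 0.1 TPM; dotted lines mark a fold change of 1.2. MYBL2, FOXM1, E2F1 and CDKN2C stay beyond -1 under all 4 settings, while E2F7 and CDKN2A each cross a dotted line.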

How the data were processed

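RNA of WI-38 cells was sequenced from both ends over 150 bp in 9 libraries, and 6 are analysed here, those whose titles match columns of the table. The deposited per-gene values of the authors carry no unit and were taken as TPM, since RSEM is among the tools in the submitters' processing notes (with HISAT2, StringTie, DESeq2 and edgeR, without roles or versions). FPKM was not excluded. Those notes give the mouse build GRCm38, while the identifiers are human Ensembl genes. The authors also deposited their fold change as a ratio and on the log2 scale, with p-values. The ratio and the p-values were read only to check that all 6499 genes pass the paper's thresholds. TPM keeps no depth, so no counting interval is given.

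Values were fitted as log2(TPM + 1) in limma 3.58.1 (R 4.3.3, eBayes using the trend and robust options), over the 5721 genes that averaged 1 TPM or more. The code was first tested on simulated data. Alternatives were another pseudocount, other filters, 2 scalings, a replicate block, plain eBayes and each library left out. Genes named are all of the circuit and of 2 lists, and the 3 largest rises and falls of 3 others. The members and lists were chosen with earlier results of these data known. Gene positions are from GENCODE 29 (GRCh38) by Ensembl identifier, matched for 6462 genes, and promoters from RefSeq (GRCh38.p14). Sums, ratios and exact tests used Python 3.11.15, pandas 2.3.3, NumPy 2.4.6 and SciPy 1.17.1.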

Additional observations from a re-analysis of the deposited data

How the results depend on the processing

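FOXM1, MYBL2, E2F1 and CDKN2C fell and passed under every alternative in which they were tested (the filter of 5 TPM removed MYBL2, E2F1 and E2F7). With each library left out in turn, the log2 fold change of FOXM1 was -2.77 to -2.53 and that of CDKN2A 0.11 to 0.20. That of E2F7 was -0.50 to -0.31 and lost its call without control replicate 2 or doxorubicin replicate 1. E2F7 was -0.12 after quantile normalization and -0.16 after median centring, and CDKN2A 0.42 after median centring, where it passed. With a pseudocount of 0.1 TPM the log2 differences of the low genes were -1.86 for E2F2, -2.82 for E2F8, -1.79 for RBL1 and -1.20 for LIN9. With 1 TPM added they were -0.355, -0.689, -0.878 and -0.579, so their size depends on the value added. The difference in TFDP2 turned to 0.019 after quantile normalization. The cause of the shifts under the scalings and with libraries left out was not tested. The 3 ratios within libraries kept their direction with a pseudocount of 0.1 TPM and with each library left out.

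Of 4076 genes changed (1301 higher, 2775 lower), 463 remained over a fold change of 2 (104 higher, 359 lower), and the unadjusted p gave a count within 1.5 times. Genes lower numbered 1643 after quantile normalization and 1735 after median centring, with 2588 higher after the latter. The median over all genes tested, -0.28 in the main fit, was -0.01 after quantile normalization and -0.02 after median centring. With a pseudocount of 0.1 TPM it was -0.33, and with a minimum mean of 5 TPM it was 0.05. List medians under quantile normalization and median centring were -0.34 and -0.37 for the RB family, E2F, DP and MuvB genes (1 gene higher under each), -0.58 and -0.59 for the G1 genes (4 higher under median centring), -0.93 and -0.99 for the E2F targets, -2.80 and -2.83 for the G2 and mitosis targets, and -0.42 and -0.34 for the INK4 regulators (2 and 3 higher). With the pseudocount of 0.1 TPM they were -0.72, -1.45 and -4.29 for the RB family, E2F target and G2 and mitosis lists. With a minimum mean of 5 TPM, 4, 3, 19 and 21 genes were lower on the RB family, G1, E2F target and G2 and mitosis lists, 1 G1 gene was higher, and the medians were -0.54 (RB family), -0.35 (G1), -3.57 (G2 and mitosis) and -0.25 (INK4 regulators), where fewer genes are tested.

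Replicate numbers are shared between the groups, but same-numbered libraries did not deviate together (correlations -0.06, -0.19 and -0.23). These are deviations from means of 3 libraries and cannot show whether the libraries were paired. The replicate block gave 3892 changed genes and altered the call of none of the 6 tested genes of the circuit. With 3 libraries a group and no read depth, low genes such as E2F2 and E2F8 are known only to the 2 decimals deposited.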

Other observations

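Among the genes tested outside the 10, the 5 whose log2(TPM + 1) over the 6 libraries was most like that of CDKN2A by Pearson's r were LCAT, RRP7BP, MEIS3, PPDPF and MIF, with r of 0.976 to 0.992. All share with it the highest value in doxorubicin replicate 2 and the lowest in control replicate 2. For CDKN2A these were 92.72 and 71.26 TPM, for LCAT, a plasma cholesterol acyltransferase, 14.44 and 3.97 TPM, and for MIF, a cytokine, 1661.55 and 1287.46 TPM. With the group means removed, r with CDKN2A was 0.966 to 0.991 for these 5. The 5 most like FOXM1 were MMD, HNRNPA0, F2RL2, C8orf88 and CDC45, with r of 0.999 for each and 0.868 to 0.986 with the group means removed. Of these only CDC45, at -2.87, had a log2 fold change as large as that of FOXM1. These values are over 6 libraries in 2 groups and were picked as the highest of many, so they carry no p.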
